A study of Mus musculus with 5 samples.

Results

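The proteasome genes described here are the 50 protein-coding genes whose GENCODE M21 symbol begins with Psma to Psmg and a number. They were chosen by symbol alone, out of 47729 genes in the deposited count table, 21697 of them protein-coding. The samples were 5 brains of male C57BL/6 mice, an inbred laboratory strain, aged 30 months. All belong to 1 group and are named by their label numbers as mice 7, 8, 9, 10 and 11. RNA sequencing libraries were made from total RNA with an Illumina mRNA kit, and no other age, sex, genotype or treatment was analysed here. With a single group, the data give the level of each gene at this age and how far the brains differed. Because the labels number the samples and say nothing more of their origin, the spread between them, on which every SD and p-value rests, may be partly technical.

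The proteasome is the barrel-shaped protease that degrades most ubiquitin-tagged proteins of the cell. Its 20S core is built of alpha rings (Psma genes), which gate entry, and beta rings (Psmb genes), of which Psmb5, Psmb6 and Psmb7 carry the cutting sites. The 19S cap adds a base and a lid. The base holds the ATPases that unfold the substrate (Psmc genes) together with Psmd1, Psmd2 and Psmd4. The lid, built of most other Psmd genes, removes the ubiquitin of the substrate. In cells exposed to interferon, Psmb8, Psmb9 and Psmb10 take the places of the cutting subunits and give the immunoproteasome, which favours peptides for MHC class I. Other members cap the core in place of the 19S particle (Psme1 to Psme4), inhibit it (Psmf1) or help to build it (Psmg1 to Psmg4, Psmd5, Psmd9, Psmd10). Neurons rely on the proteasome for turnover of synaptic proteins.

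Promoters were compared with the sequence motifs that bear on these roles. Windows of 300 bases, ending 50 bases after each RefSeq start (build GRCm38.p6), were found for 42 of the 50 genes and were searched on both strands. The motif TGACNNNGC, the element bound by Nfe2l1 and Nfe2l2, of which Nfe2l1 drives proteasome genes when proteasomes are impaired, was present for 6 of the 42 genes (14.3%), against 14% of all 27025 genes with such a window. These 6 were Psmb5, Psmb6, Psmc6, Psmd9, Psmd12 and Psme4. The letters GAAA, any 2 bases and GAAA again, the core of the element bound by interferon regulatory factors, were present for 5 of 42 (11.9%), against 3.99% of all genes. These 5 were Psmb3, Psmd4, Psmd9, Psme1 and Psmg4. TTCNNNGAA, the element bound by STAT factors, was present for 3 of 42 (7.14%: Psmb8, Psmd2 and Psmg1), against 9.55% of all genes. CCAAT was present for 15 of 42 (35.7%), against 41.1% of all genes. The windows of Psmb9 and Psmb10 held none of the first 3 motifs, which says only that these letters are not in those windows.

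The windows shown are an inducible cutting subunit, Psmb8, with its constitutive counterpart Psmb5, the constitutive Psmb6, and the members that varied most between the brains, Psmc6 and Psme4. Each reads 5′ to 3′ on the strand of its gene, with a match to TGACNNNGC or TTCNNNGAA in capitals. The matches in Psmc6 and Psme4 stand on the opposite strand and appear as their reverse complements. The windows lie at chr17:34197945-34198244 (+) for Psmb8, chr14:54617946-54618245 (-) for Psmb5, chr11:70525107-70525406 (+) for Psmb6, chr14:45329574-45329873 (+) for Psmc6 and chr11:30771525-30771824 (+) for Psme4.
Psmb8: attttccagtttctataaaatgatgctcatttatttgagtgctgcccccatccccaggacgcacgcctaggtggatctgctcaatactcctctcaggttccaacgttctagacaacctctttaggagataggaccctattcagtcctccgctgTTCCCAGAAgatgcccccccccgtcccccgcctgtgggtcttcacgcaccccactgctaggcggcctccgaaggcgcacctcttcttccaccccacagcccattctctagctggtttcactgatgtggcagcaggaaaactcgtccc
Psmb5: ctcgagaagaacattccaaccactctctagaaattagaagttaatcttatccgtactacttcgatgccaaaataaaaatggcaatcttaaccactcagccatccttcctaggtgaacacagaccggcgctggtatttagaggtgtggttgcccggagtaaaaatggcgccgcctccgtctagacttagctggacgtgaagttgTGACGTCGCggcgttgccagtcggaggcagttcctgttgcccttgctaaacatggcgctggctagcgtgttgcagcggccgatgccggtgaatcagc
Psmb6: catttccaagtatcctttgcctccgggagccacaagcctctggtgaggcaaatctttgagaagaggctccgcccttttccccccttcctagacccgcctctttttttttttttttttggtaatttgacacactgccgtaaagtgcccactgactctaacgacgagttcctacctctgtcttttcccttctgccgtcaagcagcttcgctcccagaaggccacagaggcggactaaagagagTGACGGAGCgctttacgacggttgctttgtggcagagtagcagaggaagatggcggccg
Psmc6: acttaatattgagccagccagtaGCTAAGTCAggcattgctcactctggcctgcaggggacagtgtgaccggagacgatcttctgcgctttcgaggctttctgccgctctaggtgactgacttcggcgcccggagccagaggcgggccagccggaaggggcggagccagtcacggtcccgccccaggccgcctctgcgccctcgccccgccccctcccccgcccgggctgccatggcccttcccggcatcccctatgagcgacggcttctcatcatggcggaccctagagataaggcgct
Psme4: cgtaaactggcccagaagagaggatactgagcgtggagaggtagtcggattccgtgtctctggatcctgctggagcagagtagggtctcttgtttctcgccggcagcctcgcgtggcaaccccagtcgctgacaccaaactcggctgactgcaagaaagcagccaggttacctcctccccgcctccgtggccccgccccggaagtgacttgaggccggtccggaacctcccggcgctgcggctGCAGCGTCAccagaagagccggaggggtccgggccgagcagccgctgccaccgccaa

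The libraries held 15392006 to 18723390 counts. The 50 genes took 0.268% ± 0.0115 of them (SD, n = 5), from 0.257% in mouse 10 to 0.282% in mouse 7. Markers of neurons, astrocytes, oligodendrocytes, microglia and endothelium were present in every brain, and none of the marker genes of these or of blood cells was at 0 in all 5. Mouse 11 stood apart from the other libraries in how its counts followed the base composition of the genes. The rank correlation between a gene's GC content (guanine and cytosine, in its principal transcript) and its deviation from the mean of the mice was 0.708 in mouse 11 over 16264 genes, against -0.413 to -0.040 in the other libraries. Values without mouse 11, or after removal of each library's GC and length trend, therefore stand beside the results they touch. Levels are in RPKM, the counts of a gene divided by its length and by the total of its library. The mean count was at least 10 for 47 of the 50 genes, and these were tested.

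The 31 standard subunits, those of the constitutive 20S core and of the 19S cap, were all expressed above the median gene tested. Their mean levels ran from 9.04 to 92.2 RPKM, with a median of 23.6. The median over the 47 tested members was 19.7 RPKM, against 4.59 over all 16318 genes tested, and 42 of the 47 lay above that value. The 14 core subunits and the 17 cap subunits had almost the same median, 23.9 and 22.5 RPKM. In bulk tissue, fewer cells of a type and less RNA per cell cannot be told apart.

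**Figure D1:**
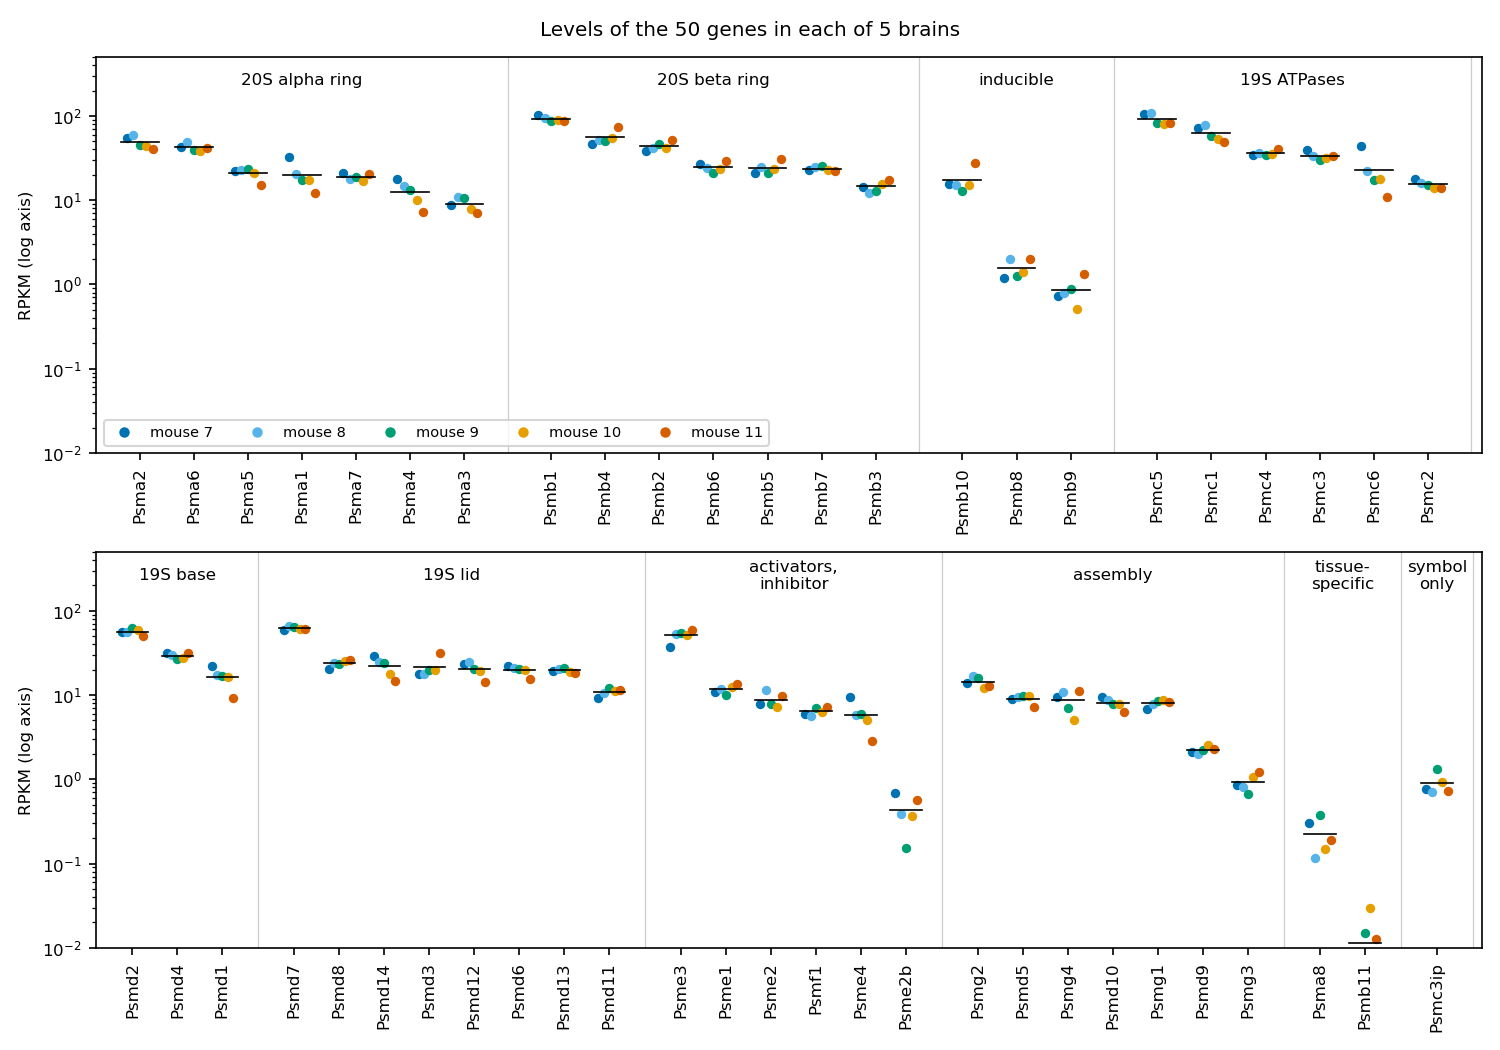
Level of each of the 50 genes in each brain, in RPKM on a log axis, ordered by role and by mean within a role. Points are the 5 mice and horizontal lines their means. Psmb11 had no count in mice 7 and 8, which a log axis cannot show. Means of the standard subunits lie between 9.04 and 92.2 RPKM, while the inducible Psmb8 and Psmb9 average 1.58 and 0.849 RPKM.

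With the authors' gene lengths the alpha ring was led by Psma2, with 55.1, 58.6, 45.7, 43.4 and 40.9 RPKM in mice 7 to 11. That lead rests on a length of 944 bases for Psma2, against 2911 for its principal transcript. For Psma7 the lengths are 3072 and 914. Psma6 was close to Psma2 at 42.5 ± 4.23 RPKM. The lowest was Psma3, with 8.85, 10.8, 10.6, 7.83 and 7.13 RPKM, so that a ring whose 7 subunits stand in equal number spanned 5.39-fold in RNA level. Psma2, Psma3, Psma1, Psma4 and Psma5 were all lowest in mouse 11. Psma1 varied most of the ring, with 32.3 RPKM in mouse 7, then 20.3, 17.5 and 17.2, and 12.2 in mouse 11. Psma5 had 22.4, 23.1, 23.3 and 21 RPKM in mice 7 to 10 and 15.1 in mouse 11, which lay clear of the other brains. Psma4 averaged 12.6 ± 4.06 RPKM and Psma7 19.1 ± 1.54.

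The constitutive beta ring was led by Psmb1, with 101.6, 93.4, 87.2, 89.1 and 87.4 RPKM, among the steadiest members of all. Its lowest member was Psmb3, with 14.4, 12.3, 12.9, 15.5 and 17.6 RPKM. Psmb4 and Psmb2, which like Psmb1 and Psmb3 have no cutting site, averaged 55.6 ± 10.5 and 43.9 ± 5.38 RPKM. With the authors' gene lengths the 3 cutting subunits were at similar levels. Those lengths are 1872 bases for Psmb6 and 3421 for Psmb7, against 798 and 1160 for their principal transcripts. For Psmb5 they are 871 and 899. The likeness of the 3, and the order within the ring, thus rest on gene length. Psmb5, the chymotrypsin-like subunit, had 21.1, 24.7, 20.96, 23.5 and 30.4 RPKM. Psmb6, the caspase-like subunit, had 26.7, 23.8, 20.8, 23.6 and 29.4 RPKM. Psmb7, the trypsin-like subunit, had 22.5, 25.1, 25.7, 22.5 and 22.2 RPKM, and did not share the high values of Psmb5 and Psmb6 in mouse 11. The spread across the ring was 6.31-fold, or 3.92-fold with the length of the principal transcript in place of the authors' gene length.

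The inducible cutting subunits were far apart from each other. Psmb10 had 15.4, 15.1, 13.02 and 15.1 RPKM in mice 7 to 10 and 27.5 in mouse 11, so mouse 11 lay well above brains that were close together. Psmb8 had 1.20, 2.00, 1.26, 1.41 and 2.03 RPKM, from 51 to 104 counts, and was highest in mice 8 and 11. Psmb9 had 0.738, 0.781, 0.872, 0.511 and 1.34 RPKM, from 30 to 92 counts. Psmb8 and Psmb9 are neighbours on chromosome 17 (GRCm38 34197721 to 34201454 and 34181987 to 34187764), in the MHC region. There 5.79% of the exon bases of Psmb9 also belong to Tap1, a peptide transporter gene on the other strand, and 14.7% of those of Psmb8 to the antisense gene Gm20496. The sources used here do not say whether the counting used strand, so part of these low counts could come from either strand.

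Within each brain, Psmb8 and Psmb9 were a small fraction of the subunit they replace. The log2 ratio of Psmb8 to Psmb5 was -3.87 ± 0.18 (SD, n = 5) and that of Psmb9 to Psmb6 was -4.76 ± 0.39, negative in 5 of 5 brains. Psmb8 made up 6.09% ± 0.838 of the RPKM of its pair and Psmb9 3.28% ± 0.929. The ratio of Psmb10 to Psmb7 was -0.50 ± 0.48, with -0.54, -0.72, -0.98 and -0.58 in mice 7 to 10 and 0.30 in mouse 11, and averaged -0.70 without mouse 11. Psmb10 thus made up 55.3% of its pair in mouse 11 and 33.6% to 40.7% in the other brains. The level of Psmb10 relative to Psmb7 rested on the gene lengths. With principal transcript lengths, which were tried after the data had been examined, the ratio of Psmb10 to Psmb7 was -2.10 and its share was 19.2% ± 5.63, while that of Psmb8 was 10.1% and that of Psmb9 3.76%. Over all 6 cutting subunits the inducible ones held 20.9% ± 3.62 of the RPKM (27.3% in mouse 11, against 18.3% to 19.8% elsewhere), or 12.3% ± 2.65 with principal transcript lengths. In exact two-sided sign-flip permutation tests over the 5 mice, whose smallest possible p is 0.0625, Psmb8 and Psmb9 reached that value (adjusted p = 0.075 over the 6 pairs compared) and Psmb10 gave p = 0.125. The design cannot pass a threshold of 0.05, and pairs with a common partner are not independent.

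**Figure D2:**
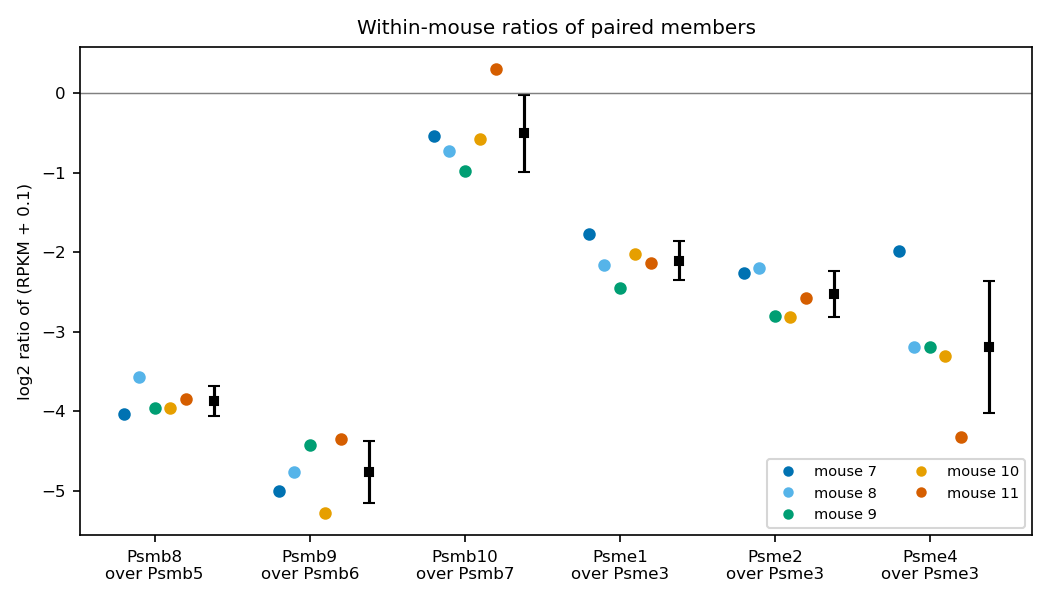
Log2 ratio of RPKM (plus a pseudocount of 0.1) of paired members within each brain. Coloured points are the 5 mice, black squares and bars the mean and SD. Psmb8 and Psmb9 lie below their constitutive partners in every mouse, and Psmb10 over Psmb7 is above 0 in mouse 11 only.

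The interferon and MHC class I genes that usually accompany the inducible subunits were all measured, 16 of 16 tested, and edgeR's test of dispersion between mice called 0 of them variable (0% of all genes tested). Their mean log2 deviations were 0.05, 0.36, -0.44, -0.22 and 0.25 in mice 7 to 11. Of the 16, 8 were highest in mouse 11 and 6 in mouse 8, against 37.6% and 12.3% of all genes tested. The inducible subunits deviated by -0.22, 0.04, -0.17, -0.32 and 0.67. With each library's GC and length trend over the longest transcripts removed, the inducible subunits had 0.38 in mouse 11, or 0.30 with principal transcripts. The interferon and MHC genes then had 0.11 in mouse 11 and 0.36 in mouse 8. These means cover genes that went opposite ways in mouse 11. Before removal Tap1, Tap2, Tapbp, B2m, H2-K1 and H2-D1 had 0.34 to 0.83 there. Nlrc5, Ifit1, Ifit3 and Usp18 had -1.07 to -0.18. With the trend of the longest transcripts removed, the former set had 0.15 to 0.68. Those below 0 were then Nlrc5, Irf1, Ifit1, Ifit3, Isg15 and Usp18. The 10 microglial markers summed to 668 CPM (counts scaled to library size) in mouse 11, against 511 to 627 CPM elsewhere. Of the 10, 6 were highest in mouse 11, against 37.6% of all genes tested, and P2ry12, Ctss and Fcrls were lowest there. The mean log2 deviation of the 10 in mouse 11 was 0.17. It was 0.01 with the trends of the longest transcripts removed, when mouse 10 was highest at 0.19. The 6 markers of B and plasma cells summed to 8.44 CPM in mouse 11, against 2.89 to 3.64 CPM elsewhere. That sum was carried by Igkc, an immunoglobulin light chain gene, with 12.65 RPKM in mouse 11 and 3.02 to 4.57 RPKM elsewhere. The other 5 had mean counts of 0.6 to 9, and of these Jchain, Cd79b and Ms4a1 were not highest in mouse 11. Other marker lists also had an extreme sum in mouse 11. Erythroid (173 CPM) and T cell markers (5.23 CPM) were highest there. Neuron (3957 CPM) and astrocyte markers (3786 CPM) were lowest. Sums for oligodendrocytes, endothelium, and neutrophils and monocytes lay within the range of the other brains. No trend was removed from these sums. The part of any of these cells in the level of the inducible subunits was not tested.

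The ATPases of the base form a ring of 6 different subunits that pulls substrates into the core. With the authors' lengths Psmc5 had the highest mean of all members, with 106.7, 109.5, 81.4, 80.8 and 82.6 RPKM. Its mean of 92.2 did not differ there from the 91.7 of Psmb1 beyond their spread. That likeness rests on a length of 1036 bases for Psmb1, against 1758 for its principal transcript. Psmc2 was the lowest ATPase with the authors' lengths, at 18.0, 16.1, 15.1, 14.1 and 13.9 RPKM. Its place also rests on length, 5031 bases against 1785 for its principal transcript. For Psmc6 the lengths are 1564 and 2234. Psmc5 and Psmc2 were both higher in mice 7 and 8 than in the other brains, and so was Psmc1 at 62.2 ± 12.5 RPKM over all. Psmc6 had 44.4 RPKM in mouse 7, 22.0, 17.4 and 17.9 in mice 8 to 10, and 11 in mouse 11, a 4.04-fold range that was the widest of all tested members. Psmc4 had 34.6, 36.2, 34.7 and 35.6 RPKM in mice 7 to 10 and 40.6 in mouse 11. Psmc3 averaged 33.4 ± 3.49 RPKM.

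Of the remaining base subunits, Psmd2, a ubiquitin receptor and docking site, had 56.1, 56.7, 61.7, 59.8 and 49.6 RPKM. Psmd4, another ubiquitin receptor, averaged 29.5 ± 2.21 RPKM. Psmd1, the large scaffold of the base, had 22.4, 17.5, 16.8, 16.4 and 9.20 RPKM, with mouse 7 highest and mouse 11 clearly lowest. The lid was led by Psmd7, with 58.5, 65.3, 63.7, 61.5 and 60.1 RPKM, the steadiest member tested. Its partner in the lid, the deubiquitinase Psmd14, averaged 22.0 ± 5.79 RPKM and was also lowest in mouse 11. Psmd11, the lowest lid subunit, had 9.28, 10.7, 12.1, 11.2 and 11.5 RPKM. Psmd13 was also steady, with 19.2, 20.7, 21.1, 18.7 and 18.4 RPKM. The scaffold subunit Psmd3 had 17.9, 18.0, 19.9 and 20.03 RPKM in mice 7 to 10 and 31.7 in mouse 11. Psmd6, Psmd8 and Psmd12 averaged 19.7 to 23.9 RPKM. With principal transcript lengths the lid spanned 2.55-fold in place of 5.64-fold, and the 3 base subunits 2.01-fold in place of 3.45-fold.

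Among the activators, Psme3, the nuclear form that works without ubiquitin, was the most abundant, with 37.3, 53.4, 54.7, 51.3 and 58.8 RPKM. Psme1 and Psme2 together form the interferon-responsive ring and lie side by side on chromosome 14 (GRCm38 55578123 to 55581529 and 55587441 to 55591113). Psme1 had 10.9, 11.9, 9.94, 12.6 and 13.4 RPKM. Psme2 had 7.73, 11.6, 7.78, 7.21 and 9.81 RPKM, highest in mice 8 and 11, the brains in which Psmb8 was highest too. Psme4, a single large activator protein, had 9.38, 5.74, 5.93, 5.12 and 2.85 RPKM. Mouse 7 had its highest level and mouse 11 its lowest, the reverse of Psme3. The log2 ratio to Psme3 was -2.10 ± 0.25 for Psme1, -2.53 ± 0.29 for Psme2 and -3.20 ± 0.83 for Psme4. Each was negative in 5 of 5 brains, at the smallest possible exact permutation p of 0.0625 (adjusted p = 0.075). With principal transcript lengths the ratios were -1.27 for Psme1, -1.81 for Psme2 and -2.98 for Psme4. The inhibitor Psmf1 had 6.03, 5.71, 7.02, 6.37 and 7.16 RPKM. Psme2b, an intronless copy of Psme2, had 9, 5, 2, 5 and 9 counts and was not tested, and its reads cannot be told with certainty from those of Psme2.

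Assembly factors averaged 0.930 to 14.4 RPKM, with a median of 8.07. With the authors' lengths the alpha ring chaperone Psmg2 was the highest, with 13.9, 16.8, 16.2, 12.2 and 12.96 RPKM. Psmg3 was the lowest, with 0.867, 0.809, 0.662, 1.08 and 1.24 RPKM, although its partner Psmg4 had 9.52, 11.02, 7.03, 5.06 and 11.2 RPKM. The gap between these partners rested in part on gene length, since the group spanned 15.5-fold with the authors' lengths and 4.84-fold with principal transcript lengths. Psmg1, the partner of Psmg2, averaged 7.996 ± 0.700 RPKM. The base chaperones Psmd5 and Psmd10 averaged 8.97 ± 1.07 and 8.07 ± 1.20 RPKM and Psmd9 2.23 ± 0.210. For Psmd9, 25.5% of the exon bases also belong to the noncoding gene Gm26745 on the other strand.

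The members known from single tissues were close to absent. The testis subunit Psma8 had 8, 3, 10, 4 and 6 counts, a mean of 0.227 RPKM, and the thymus subunit Psmb11 had 0, 0, 1, 2 and 1 counts. A count of 0, as Psmb11 had in mice 7 and 8, allows up to 3 counts in a library. Psmc3ip, which meets the symbol rule but codes for a protein of meiotic recombination and not for a proteasome part, had 0.778, 0.715, 1.33, 0.926 and 0.735 RPKM. It shares 21.2% of its exon bases with Mlx on the other strand.

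No member was called variable between the brains. In edgeR's quasi-likelihood fit of all 16318 genes, 0 of the 47 tested members had a dispersion above its trend at an adjusted p under 0.05, against a background of 0% of all genes, and the lowest adjusted p of a member was 0.981. At an unadjusted p under 0.05 edgeR marked 2 members, Psmc6 and Psme4, while 786 genes or 4.82% of all tested were so marked, a share near that of the members. limma called 0 genes, and DESeq2 set 49 genes (0.3%) apart as dispersion outliers, of which 0 were members. Differences in 1 brain had to be large to be called. On simulated counts, 0 of 100 genes raised 4-fold in 1 mouse were recovered and 98 of 100 raised 16-fold. Those genes averaged at least 100 counts and were all raised in the same simulation, which eases the adjusted threshold. Recovery of a single raised gene, or of one with fewer counts, was not simulated and may be poorer.

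The SD of log2 CPM exceeded that given by counting alone for all 47 tested members, against 95% of all genes tested. It was over 2 times as large for 40 members (85.1%), against 69.8% of all genes. Its median was 0.21 over the members and 0.30 over all genes tested, or 0.15 and 0.20 without mouse 11. The widest spreads were those of Psmc6 at 0.70, Psme4 at 0.58, Psmb9 at 0.52, Psmg4 at 0.49 and Psma1 at 0.48. The smallest were those of Psmd7 at 0.07, Psmb1 at 0.08 and Psmd13 at 0.08. Without mouse 11 the SD of Psmc6 was 0.62, that of Psma1 0.42 and that of Psmg4 0.48, while that of Psme4 was 0.38 and that of Psmb9 0.33. The spread of some members lay almost wholly in mouse 11. Without it the SD of Psmb10 was 0.10 in place of 0.45 and that of Psmd3 0.10 in place of 0.38.

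Subunits of some roles deviated largely together in some brains, and the means of different roles went in opposite directions. The mean log2 deviations of the alpha ring were 0.23, 0.16, 0.04, -0.16 and -0.27 in mice 7 to 11. In mice 7 and 8, 6 of its 7 members were above their mean, against 7574 and 8372 of all 16318 genes tested. With GC and length trends removed, 4 of the 7 were above it in mouse 7 with either transcript choice. The mean deviations of the constitutive beta ring were -0.08, -0.07, -0.07, -0.04 and 0.26, with mouse 11 clear of the others. The ATPases had 0.31, 0.11, -0.11, -0.15 and -0.16. Of the 6, 0 were above their mean in mouse 9 or 10, against 7932 and 7993 of all genes tested. In mouse 7 Psmc6 alone deviated by 1.11, and the others by -0.09 to 0.21. The other base subunits had 0.17, 0.03, 0.04, -0.01 and -0.22, means carried mostly by Psmd1. In mice 7 and 11 Psmd1 had 0.47 and -0.72, Psmd2 -0.04 and -0.13, and Psmd4 0.06 and 0.18. The means of the lid, the activators and the assembly factors hardly moved, with SDs of 0.05, 0.05 and 0.06 over the mice, although single members such as Psme3 and Psme4 went opposite ways. Over all 47 tested members, which went both ways, the SD of the mean was also 0.06. These group values are descriptions and carry no test.

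**Figure D3:**
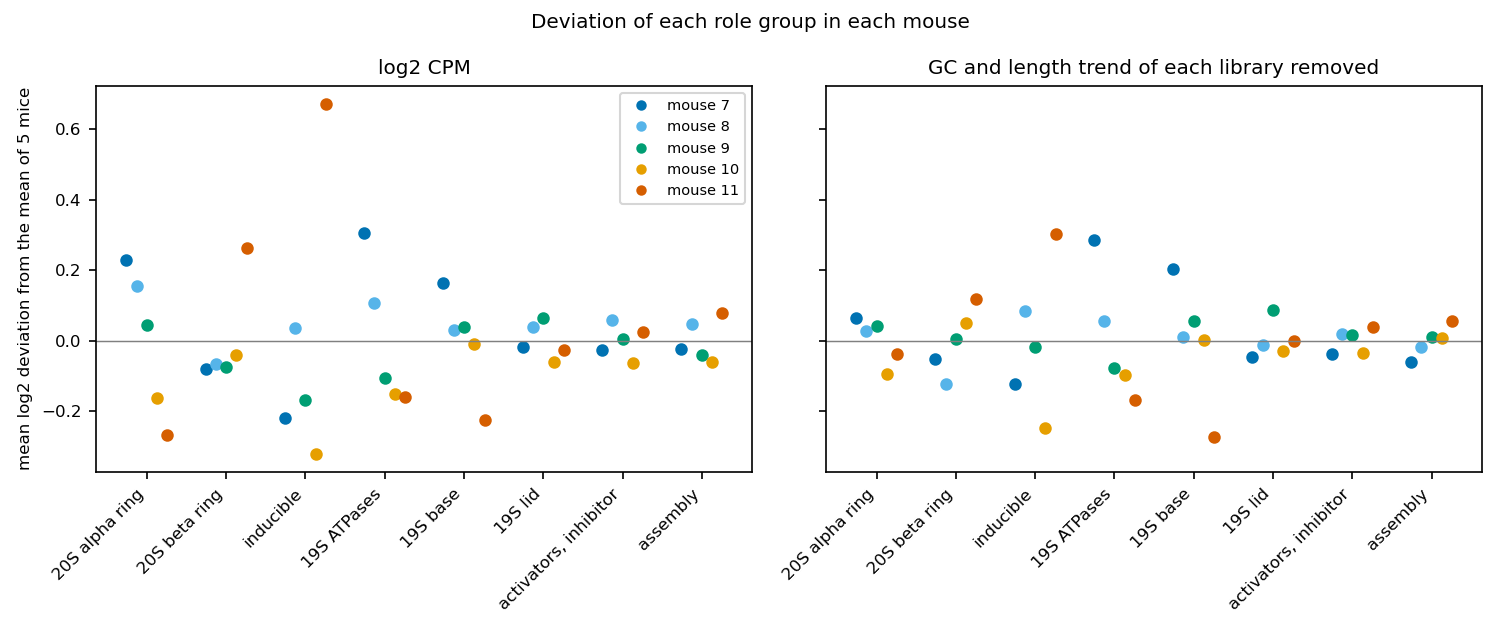
Mean log2 deviation of each role group from the mean of the 5 mice, from log2 CPM on the left and after removal of each library's GC and length trend (principal transcript) on the right. Points are the mice. The alpha ring narrows on the right, to an SD of 0.07 against 0.21 on the left, while the ATPases keep mouse 7 at the top and mouse 11 at the bottom.

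These deviations moved with the GC content of the transcripts. Across the 47 members the rank correlation of GC content with the deviation was 0.838 in mouse 11, and -0.556, -0.481, -0.537 and 0.159 in mice 7 to 10. All 10 members with a GC content under 45% were lower in mouse 11 than in mouse 7, Psmc6 (37.0%), Psme4 (43.9%), Psma1 (44.0%), Psma4 (44.98%) and Psmd14 (43.2%) among them. Their median log2 difference of mouse 11 from mouse 7 was -0.77, against -0.72 over all genes of that range. Of the 18 members at 52% or more, 17 were higher in mouse 11, among them Psmb10 (56.5%), Psmd3 (58.3%), Psmb8 (55.8%) and Psmb9 (55.3%). Their median was 0.40, against 0.51 over all genes of that range. Between these limits 9 members were lower in mouse 11 and 10 higher, with a median of 0.00. The members followed the base composition as the whole table did, and 19 of the 47 (40.4%) were highest in mouse 11, against 37.6% of all genes tested. When mouse 11 was left out, the correlations over the members were -0.290, -0.002, -0.132 and 0.502 in mice 7 to 10. Over all 16264 genes they were -0.210, -0.012, -0.002 and 0.325, so mouse 10 leaned to high GC content there too.

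**Figure D4:**
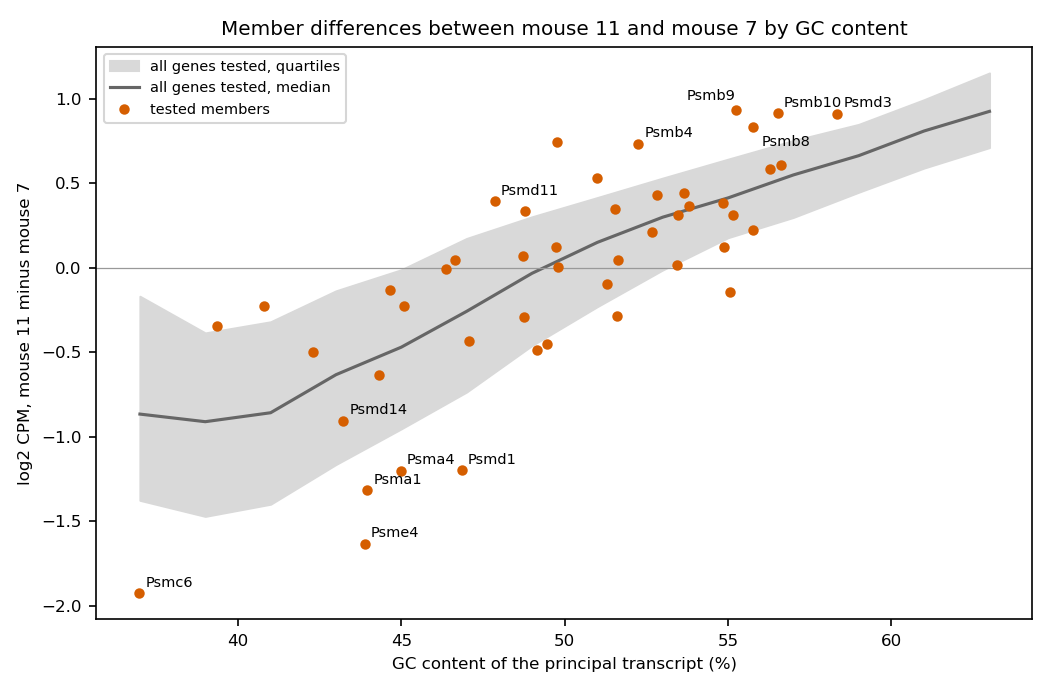
Log2 CPM of mouse 11 minus that of mouse 7, against the GC content of the principal transcript in percent. Orange points are the 47 tested members, the line and band the median and quartiles of all genes tested. Members under 45% GC lie below 0 and most of those at 52% or more lie above it, along the band of all genes.

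Each library's trend along GC content and length was then removed in separate fits, one over the longest transcript of each gene and one, added after the data had been examined, over the principal transcript. Before removal, principal GC content correlated with the difference between mice 11 and 7 at 0.778 over the members and 0.653 over all genes. Over the members the correlation was then 0.248 with the longest transcripts and 0.074 with the principal ones. Over all genes it was 0.031 and -0.018. The SD became smaller for 33 of the 47 members (70.2%) with the longest transcripts, against 69.1% of all genes tested. With principal transcripts it became smaller for 36 (76.6%), against 69.4% of all genes. The alpha ring's SD over the mice was then 0.10 with the longest transcripts and 0.07 with the principal ones, against 0.21 before, and its value in mouse 11 was -0.11 and -0.04. The ATPases had 0.24, 0.05, -0.07, -0.09 and -0.14 with the longest transcripts and 0.29, 0.06, -0.08, -0.10 and -0.17 with the principal ones. The other base subunits had SDs of 0.15 and 0.17, against 0.14 before. In mouse 11 Psmd1 then had -0.475 and -0.495, Psmd2 -0.204 and -0.186, and Psmd4 -0.010 and -0.134. The beta ring's value in mouse 11 was 0.19 and 0.12, and mouse 11 no longer stood clear of the other brains. The widest spread was that of Psmd11 at 0.45 with the longest transcripts, ahead of Psmc6 at 0.44, and that of Psmc6 at 0.43 with the principal ones. Psme4 had 0.34 and 0.32, and Psmc4 had the smallest spread in both, at 0.03. Why the libraries differed along GC content was not tested.

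Proteins that work with the proteasome were taken from a list of 30 symbols, of which 27 were in the table and tested. Another 2 are older symbols of listed genes, and Paaf1 was not analysed here. By edgeR, 0 of the 27 were called variable, and their median SD of log2 CPM was 0.21, as for the members. The shuttle protein Ubqln1 was the highest, with 77.8, 92.5, 99.7, 102.1 and 90.2 RPKM.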

How the data were processed

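RNA was measured in 5 brain libraries. The tools CASAVA 1.7, featureCounts 1.4.6-p4 and STAR 2.4.1d and the GRCm38 genome are named without roles, per the submitters' processing notes. The annotation release, strand setting and read filters are not given in the sources used here. Per gene, the authors deposited raw counts and RPKM (counts scaled by gene length and by library total). In the deposited RPKM of 12729 genes checked, the 5 library totals had been applied in turn down the table, so that 20% of values were divided by their own library's total. RPKM were therefore recomputed from the counts with the lengths implied by the deposited values and each library's own total. The deposited values were 0.821 to 1.22 times the recomputed ones. Of the 50 members, 37 had a length within 1% of the M21 exon length. Symbols came from GENCODE M21 for 47310 of 47729 genes, and genes without one held 0.0469% of counts. The 4 noncoding genes whose symbols match the rule, with 9 counts in all, were left out. Exons of 15 members share bases with another gene, on the other strand for 12.

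The members, role groups and lists were chosen with earlier results of these data known. No 2 libraries agreed within sampling noise (chi-square per gene 6.97 to 102), so all 5 were kept. The 16318 genes whose counts averaged 10 or more were fitted with an intercept in edgeR 4.0.16 (TMM scaling). The quasi-dispersion of each was set against a robust F distribution along the expression level (limma 3.58.1). Genes were called at 0.05 after Benjamini-Hochberg adjustment. The common biological coefficient of variation was 0.234. The test was tried on simulated counts of 16054 genes, with 7 false calls. DESeq2 1.42.0 gave size factors and dispersion outliers as alternatives, under R 4.3.3. Log2 CPM had a prior count of 1, and ratios of RPKM a pseudocount of 0.1 and an exact sign-flip test (Python 3.11.15, scipy 1.17.1). GC content and length trends were fitted per library over all genes. Intervals are SDs over mice, and the limit for a count of 0 is 3 counts, for counting error only. Values per mouse were given for the highest and lowest member of each role, the cutting subunits, the activators, the 5 largest and 3 smallest SDs and members with 1 mouse far from the other 4. Values of Psma4, Psmd14 and other members named for their GC content were chosen after they were seen. Promoters came from RefSeq tables of GRCm38.p6. A gene of the partner list is not reported here.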

Additional observations from a re-analysis of the deposited data

Results flagged for a closer look

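Of 55 values examined, 5 had 1 mouse far from the other 4, with a gap to the nearest brain above 0.71 of the whole range. Chance flags about 1 in 20 groups, and in each of these values the mouse was number 11. In log2 CPM, mouse 11 was also the highest for 37.6% of all genes tested and the lowest for 32.68%. Its place at an end of the range is thus not particular to the members. The share of all genes with so wide a gap was not computed, so 5 of 55 cannot be compared with the whole table. Psmb10 reached 27.5 RPKM in mouse 11, against 13.02 to 15.4 RPKM in mice 7 to 10. Psmd3 reached 31.7 RPKM, against 17.9 to 20.03. Psmc4 reached 40.6 RPKM, against 34.6 to 36.2. Psma5 was the one low value, with 15.1 RPKM, against 21 to 23.3. The mean log2 deviation of the constitutive beta ring was 0.26 in mouse 11, against -0.08 to -0.04. After removal of each library's GC and length trend, with either transcript choice, mouse 11 was still far from the others for Psma5 (0.721 of the range with principal transcripts) and Psmb10 (0.734), and not for Psmc4, Psmd3 or the beta ring.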

How the results depend on the processing

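No member was called variable under any of the 13 alternatives, those that leave out a mouse included, and none of the 6 mean ratios changed sign. The level spreads, and in some roles which member was highest or lowest, depended on gene length. With reference exon lengths the fold was 3.824 for the beta ring, 9.154 for the ATPases and 3.988 for the lid, and with principal transcript lengths, chosen after the data were examined, 3.921 for the beta ring, 7.262 for the inducible subunits, 2.014 for the other base subunits, 2.545 for the lid and 4.837 for assembly factors. Without a filter on low counts the activators spanned 117.3-fold, because Psme2b enters. Leaving out each mouse gave spreads of 5.754 to 6.118 (ATPases), 3.204 to 3.798 (other base), 5.505 to 5.751 (lid), 5.189 to 5.718 (alpha ring), 6.048 to 6.736 (beta ring), 7.83 to 11.11 (activators), 13.97 to 17.26 (assembly) and 19.03 to 21.67 (inducible). The SDs of the deviations were 0.1278 to 0.2398 (ATPases, lowest without mouse 7), 0.0757 to 0.1836 (other base), 0.041 to 0.0592 (lid), 0.1703 to 0.2415 (alpha ring), 0.0174 to 0.167 (beta ring), 0.0303 to 0.0547 (activators, lowest without mouse 8), 0.0468 to 0.0637 (assembly) and 0.1507 to 0.4461 (inducible). Without mouse 11 they were 0.0174 for the beta ring, 0.1507 for the inducible and 0.0757 for the other base subunits. With GC and length trends removed they were 0.1022 (alpha ring), 0.118 (beta ring) and 0.2479 (inducible), or 0.0658, 0.0929 and 0.21 with principal transcripts. The mean log2 ratios were -0.7039 to -0.3839 (Psmb10), -3.9463 to -3.8301 (Psmb8), -4.8665 to -4.635 (Psmb9), -2.1869 to -2.0164 (Psme1), -2.6103 to -2.4557 (Psme2) and -3.5002 to -2.9152 (Psme4), and that of Psmb10 was -0.92 with reference exon lengths. No pairing of samples was possible because the labels give 1 group. Depth limits the untested members, Psmc3ip, Psmg3, Psmb9 and Psmb8 most.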
